A study of Homo sapiens with 18 samples.

Results

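The SLC25 carriers form the largest family of transport proteins of the inner mitochondrial membrane, and 37 of their genes were followed here in HUDEP1, a line of immortalised human erythroid progenitors. The members were all gene symbols of the form SLC25A followed by a number, other than SLC25A20, SLC25A37 and SLC25A38, that reached 1 in 3 or more of the 18 libraries. Of 39 matching genes in a table of 13358 entries, 37 met this minimum. SLC25A34 and SLC25A41 fell short of it, with highest values of 0.87 and 0.41. SLC25A48 lay just inside, with a value of at least 1 in 5 libraries, all of them GATA1s libraries in expansion. Its passing the minimum therefore rested on libraries in which it was high, and its differences are given as description only. SLC25A2, SLC25A18, SLC25A27, SLC25A31, SLC25A47 and SLC25A52 were not analysed here.

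Carriers of this family are encoded in the nucleus, imported into mitochondria after translation, and exchange nucleotides, phosphate, carboxylates, amino acids and cofactors between the cytosol and the matrix. Erythroid precursors depend on such exchange because heme synthesis begins and ends in the matrix, and iron, glycine, cofactors and glutathione must cross the inner membrane. GATA1, a transcription factor, directs the development of red cells, and GATA1s is its short isoform, made without the N-terminal region.

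Poly(A) RNA was sequenced with a strand-specific library kit in 6 groups of 3 libraries. The GATA1FL group (FL) expressed full-length GATA1, and the clones GATA1s_1D5 (1D5) and GATA1s_1KI9 (1KI9) expressed GATA1s. Expansion cultures of all 3 lines were kept in SFEM II with doxycycline at 1 µg/mL, dexamethasone at 1 µM, stem cell factor at 50 ng/mL and erythropoietin at 3 U/mL. Day 4 cultures had been moved to IMDM with 2% FBS, 3% human AB serum, 10 µg/mL insulin, 3 U/mL heparin and 1 mg/mL holo-transferrin, with erythropoietin, stem cell factor and doxycycline at the same amounts and no dexamethasone listed. FL was treated as 1 line, since the labels do not say how many clones it held. Genotype and clone therefore cannot be told apart in any comparison with it, and the same 3 FL libraries served both clones. Whether the replicates were grown separately is not in the labels, and p-values therefore measure only the spread among these libraries, which may be technical.

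Values in expansion were TPM, a unit corrected for transcript length and library size, with sums over all entries of 943734 to 950736 per library. Day 4 values had the form of TPM but summed to 814583 to 1081251, so they had been rescaled and are called day 4 units below. The day 4 sums differed by line without overlap, at 1045885 to 1081251 in FL, 874292 to 945379 in 1D5 and 814583 to 857123 in 1KI9. Effects of the rescaling and of the line therefore cannot be told apart in the day 4 values as deposited. Sequencing depth is unknown. Globin genes took 38.2% to 39.4% of the day 4 total in FL, 19.3% to 20.6% in 1D5 and 12.4% to 13.3% in 1KI9. Mitochondrially encoded genes took 8.58% to 9.32%, 16.2% to 17.1% and 18.4% to 19.4%. GATA1 totals were 143 to 168 TPM in FL and 614 to 680.2 in the clones in expansion. The gene total does not separate the isoforms and so checks no label. Of 12 erythroid markers, 11 were lower in both clones at day 4 and 1, GATA1, was higher, while in expansion 3 were lower and 1 higher. The summed level of 7 monocyte and neutrophil markers at day 4 was 44.4 to 48.3 units in FL, where CSF1R and TYROBP were at 0 in all 3 libraries, 334.5 to 356 in 1D5 and 407 to 430.4 in 1KI9. In expansion these sums were 14.7 to 51.7, 59.1 to 72.5 and 222 to 264.5 TPM, and the defining markers CSF1R and ELANE were at 0 in all 3 FL libraries. Mast cell and basophil markers summed to 830.1 to 1246, 386 to 395.6 and 525 to 592 TPM in expansion and to 424 to 438, 414.5 to 455 and 592 to 603.5 at day 4. Single genes did not follow these sums. Of 6 tested, 2 were higher in both clones in expansion (TPSB2 and FCER1A) and 5 at day 4. PRG2 was the 1 lower gene each time. Megakaryocyte markers summed to 0.31 to 0.56, 1.54 to 3.05 and 8.4 to 11.45 TPM in expansion and to 4.02 to 4.46, 19.98 to 23.3 and 16.19 to 17.74 at day 4 (FL, 1D5 and 1KI9). Of 2 tested, 2 were higher in both clones in expansion (ITGB3 and ITGA2B) and 1 at day 4 (ITGB3). The part of these shifts in the SLC25 differences was not tested. In bulk RNA, fewer cells of a type and less RNA per cell cannot be told apart.

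The promoters of 4 carriers are shown, chosen after their values were seen. SLC25A42 and SLC25A39 had the most negative differences between the GATA1s clones and FL at day 4, SLC25A29 had the largest positive one, and SLC25A4 had the largest positive change of that difference from expansion to day 4. Each stretch is from RefSeq (GRCh38.p14), runs 5′ to 3′ on the strand of its gene and ends before the annotated start of transcription in both RefSeq and GENCODE 29. Capitals mark GATA letters, defined as AGATAA on either strand, or the same letters with T first or with G last.

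SLC25A39 promoter, chr17:44324871-44325073 (minus strand): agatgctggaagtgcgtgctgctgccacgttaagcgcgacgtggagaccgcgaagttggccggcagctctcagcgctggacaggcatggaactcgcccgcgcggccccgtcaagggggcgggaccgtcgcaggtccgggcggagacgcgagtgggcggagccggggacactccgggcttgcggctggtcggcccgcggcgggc

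SLC25A42 promoter, chr19:19063744-19063993 (plus strand): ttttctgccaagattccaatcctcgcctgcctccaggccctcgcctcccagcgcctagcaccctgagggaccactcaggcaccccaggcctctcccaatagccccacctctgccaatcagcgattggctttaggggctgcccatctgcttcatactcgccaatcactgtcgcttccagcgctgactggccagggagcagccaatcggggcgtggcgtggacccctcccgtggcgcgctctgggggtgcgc

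SLC25A29 promoter, chr14:100306548-100306694 (minus strand): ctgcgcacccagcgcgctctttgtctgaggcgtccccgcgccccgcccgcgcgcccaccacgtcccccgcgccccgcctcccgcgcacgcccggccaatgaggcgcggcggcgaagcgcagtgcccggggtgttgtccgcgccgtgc

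SLC25A4 promoter, chr4:185143016-185143240 (plus strand): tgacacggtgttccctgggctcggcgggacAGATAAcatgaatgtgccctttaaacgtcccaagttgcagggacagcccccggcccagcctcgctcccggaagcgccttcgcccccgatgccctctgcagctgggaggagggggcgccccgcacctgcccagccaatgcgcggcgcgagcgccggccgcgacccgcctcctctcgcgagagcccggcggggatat

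Only the SLC25A4 stretch held the GATA letters, as AGATAA starting 220 bases before the RefSeq start site, which lies past the end of the stretch shown. In windows of 250 bases before to 50 bases after the start, 4 of the 32 members with a RefSeq promoter (12.5%) held them, namely SLC25A4, SLC25A21, SLC25A26 and SLC25A53, against 25% of all 35116 promoters. The pentamer CCAAT on either strand stood in 17 of 32 (53.1%, all promoters 34.6%) and the E-box CACGTG in 5 (15.6%, all promoters 7.26%). These are matches of letters and not binding sites, and several of these windows are rich in G and C, with 73.4% in the SLC25A39 stretch and 80.3% in that of SLC25A29.

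In expansion, 14 of the 37 carriers differed from FL in both GATA1s clones, 8 higher and 6 lower, and at day 4, 28 did, 24 higher and 4 lower. A gene was called when 1D5 and 1KI9 each passed limma's test against FL on log2(value + 1) with the same sign at a Benjamini-Hochberg adjusted p of 0.05 over all genes tested. The scale understates the change of low genes. Without SLC25A48, which passed the minimum only through GATA1s libraries, 7 of 36 carriers were higher and 6 lower in expansion, and 23 and 4 at day 4. Over all genes tested, 17.4% were called higher and 8.98% lower in expansion, and the shares of the 36 carriers without SLC25A48 were 19.4% and 16.7%. At day 4 the same shares were 51.2% and 14.3% over all genes and 63.9% and 11.1% for these carriers. The median log2 difference of the carriers, as the mean of both clones minus FL, was 0.01 in expansion, where that of all genes was 0.06, and 0.40 at day 4, where that of all genes was 0.29. The carriers' shares were above those of all genes other than the share lower at day 4, and no test of this was made. Single members ranged from -1.52 to 1.93 at day 4.

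The scaling of the libraries bears on these counts. With median-of-ratios scaling the day 4 median of all genes moved from 0.29 to -0.02, and the carriers called at day 4 were 14 higher and 9 lower, with those of SLC25A1, SLC25A3, SLC25A14, SLC25A17, SLC25A22, SLC25A33, SLC25A36, SLC25A45 and SLC25A48 among the higher calls lost. Lower calls were gained there for SLC25A5, SLC25A6, SLC25A28, SLC25A46 and SLC25A51. The split of all called genes moved from 5666 higher and 1585 lower to 2927 and 3462. In expansion this scaling gave 6 higher and 8 lower carriers, and 1626 and 1707 genes in all, against 1924 and 991 as deposited. The day 4 differences of SLC25A3, SLC25A17, SLC25A28 and SLC25A44 and the expansion differences of SLC25A3, SLC25A36, SLC25A44, SLC25A46 and SLC25A53 changed sign between scalings, so no direction is drawn for them. Over 7 other settings and the omission of each of the 18 libraries, 5 of the 8 higher calls in expansion (SLC25A23, SLC25A24, SLC25A29, SLC25A30 and SLC25A35), 14 of the 24 higher calls at day 4 and 3 of the 4 lower calls at day 4 (SLC25A21, SLC25A39 and SLC25A42) were kept every time, whereas each of the 6 lower calls in expansion was lost at least once. With only the 6 expansion libraries of each comparison fitted, 5 carriers were called higher and 0 lower in limma. At an unadjusted p under 0.05 the counts were 8 and 2. The lower calls in expansion thus rest on the spread shared over all 18 libraries. Their number was 3 without FL replicate 2, FL replicate 3 or 1KI9 replicate 1 and 2 without 1D5 replicate 2 or 1D5 replicate 3.

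**Figure D1:**
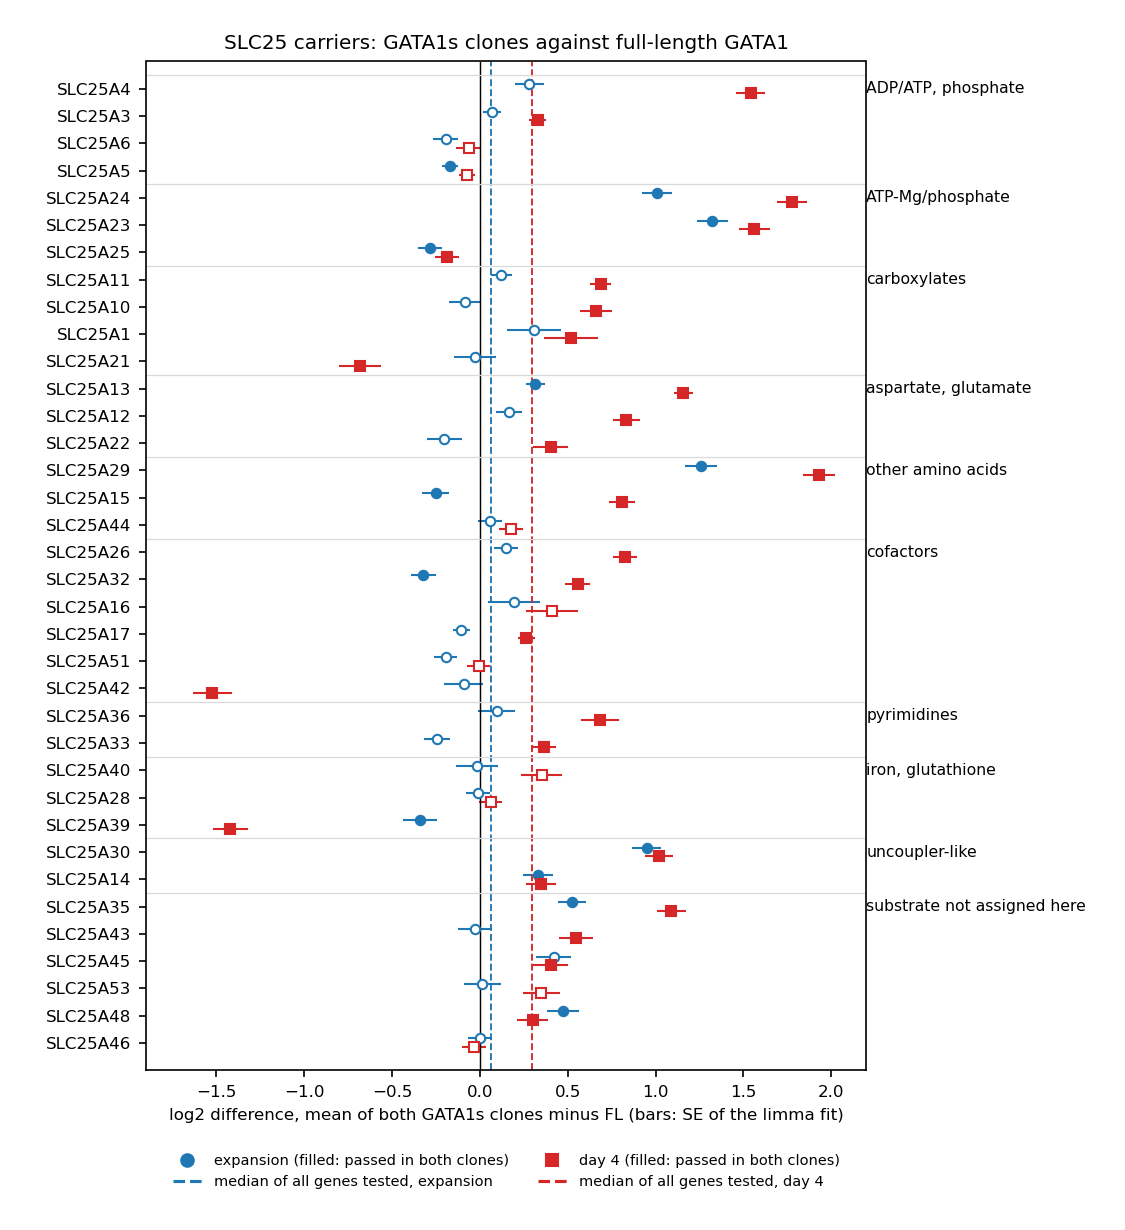
Log2 difference of 36 SLC25 carriers, as the mean of both GATA1s clones minus FL (horizontal axis, with the SE of the limma fit), in expansion (blue circles) and at day 4 (red squares), grouped by substrate; filled symbols passed in both clones and dashed lines mark the median of all genes tested. At day 4 SLC25A42 and SLC25A39 lie far to the left at -1.52 and -1.42, while SLC25A29, SLC25A24, SLC25A23 and SLC25A4 lie above 1.5.

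Among the carriers of iron and glutathione, SLC25A39 was lower in the GATA1s clones and its paralogue SLC25A40 and the iron importer SLC25A28 were not called. SLC25A39 (ENSG00000013306.16, chr17:44319625-44324870, hg38), which is required for glutathione import into mitochondria, had the third highest mean of the carriers over all 18 libraries. In FL and 1D5 at day 4 SLC25A39 was the highest of them. At day 4 it stood at 956, 957 and 884 units in FL, 386, 410.2 and 388 in 1D5 and 315, 312 and 291 in 1KI9. Every GATA1s library lay below every FL library, and the level in 1KI9 lay below that in 1D5. SLC25A39 differed by -1.42 ± 0.10 (SE, limma adjusted p = 3.3e-10) on the log2 scale at day 4, with -1.24 in 1D5 and -1.60 in 1KI9. In expansion the values were 288, 206 and 182 TPM in FL, 173, 159 and 193 in 1D5 and 165, 176 and 181 in 1KI9. FL replicate 1 stood apart from the other FL libraries, which overlapped 1D5, and SLC25A39 differed by -0.34 ± 0.10 (SE, limma adjusted p = 0.00724). Without FL replicate 1, in which the globin share was 10.6% (5.55% and 5.73% in FL replicates 2 and 3), the difference was -0.15 (limma adjusted p = 0.0718), and with only the expansion libraries fitted the adjusted p was 0.0664 in limma; the call in both clones was also lost with rescaling without globin and mitochondrially encoded genes and without 1D5 replicate 1, 1D5 replicate 2 or 1KI9 replicate 1.

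SLC25A40, the closest relative of SLC25A39, was at 5.82, 5.82 and 6 units in FL, 5.24, 7.14 and 8.13 in 1D5 and 8.02, 8.68 and 10.3 in 1KI9 at day 4. It was above FL in 1KI9 (0.53 ± 0.14 (SE, limma adjusted p = 0.00184)) but its difference in 1D5 was 0.17 ± 0.14 (SE, limma adjusted p = 0.274). SLC25A28, or mitoferrin-2, the broadly expressed mitochondrial iron importer, was at 27.8 ± 0.379, 28.3 ± 1.9 and 29.96 ± 1.44 units at day 4 (mean ± SD, n = 3, in FL, 1D5 and 1KI9). Its log2 difference was 0.06 ± 0.07 at day 4 and -0.01 ± 0.07 in expansion, and the values as deposited gave 95% intervals from -0.08 to 0.20 and from -0.15 to 0.13. With median-of-ratios scaling SLC25A28 was called lower at day 4, at -0.29 (limma adjusted p = 0.00107). The mean SLC25A39 level over all 18 libraries, TPM and day 4 units pooled, was 38.9 times that of SLC25A40, on the length-normalised scale. The groups differed widely, from means of 932.1 against 5.88 units in FL at day 4 to 174.3 against 12.48 TPM in 1KI9 in expansion.

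Cofactor carriers split at day 4, with SLC25A42 lower and 4 of 7 higher, where 51.2% of all genes were called higher and 14.3% lower. SLC25A42 (ENSG00000181035.13, chr19:19063999-19112888), a carrier of coenzyme A, was at 31.3, 30.5 and 29.1 units in FL, 11.3, 11.5 and 12.01 in 1D5 and 8.5, 8.5 and 8.23 in 1KI9 at day 4. FL libraries lay above every GATA1s library, and 1KI9 lay below 1D5 without overlap. The log2 difference of SLC25A42 at day 4 was -1.52 ± 0.11 (SE, limma adjusted p = 6.65e-10), the most negative of the 37 carriers. In expansion the groups overlapped, at 6.81, 5.64 and 4.34 TPM in FL, 4.6, 6.45 and 3.97 in 1D5 and 5.13, 5.61 and 5.2 in 1KI9, with a difference of -0.09 ± 0.11 (SE, limma adjusted p = 0.501). SLC25A16, also linked to coenzyme A transport, was not called in either condition, with log2 differences of 0.20 ± 0.15 and 0.41 ± 0.15.

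SLC25A32, the folate carrier, was at 28.4, 34.9 and 36.9 TPM in FL, 28.9, 27.3 and 27.7 in 1D5 and 23.3, 26.1 and 25.03 in 1KI9 in expansion, where FL replicate 1 overlapped 1D5. Day 4 values were 6.09, 6.41 and 6.71 units in FL, 8.95, 8.94 and 10.1 in 1D5 and 10.6, 10.3 and 10.6 in 1KI9, without overlap. The differences of SLC25A32 were -0.32 ± 0.07 and 0.56 ± 0.07. Its lower call in expansion was lost with rescaling without globin and mitochondrially encoded genes and with only the libraries compared fitted. The call was also lost without FL replicate 2 or 3 or 1D5 replicate 2 or 3.

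SLC25A26 (ENSG00000144741.17, chr3:66133610-66388116), which imports S-adenosylmethionine, the methyl donor, was the carrier that differed most between the GATA1s clones at day 4. It stood at 10.4, 9.93 and 11.7 units in FL, 15.1, 17.4 and 16.3 in 1D5 and 22.8, 24.4 and 24.5 in 1KI9, and the 3 groups did not overlap. Its log2 difference from FL was 0.56 ± 0.08 in 1D5 and 1.09 ± 0.08 in 1KI9, and 1KI9 exceeded 1D5 by 0.53 ± 0.08 (SE, limma adjusted p = 0.000119). In expansion it was at 12.8, 11.3 and 13.4 TPM in FL, 13.7, 12.4 and 12.2 in 1D5 and 15.02, 16.2 and 14.6 in 1KI9. There 1KI9 was again above 1D5, by 0.24 ± 0.08 (SE, limma adjusted p = 0.024). That call was lost with either other scaling, with only the libraries compared fitted, and without 1D5 replicate 2, 1D5 replicate 3 or 1KI9 replicate 2. The peroxisomal carrier SLC25A17 was at 27.9 ± 0.861, 33.4 ± 1.73 and 34.02 ± 1.35 units at day 4, a difference of 0.27 as deposited and -0.085 with median-of-ratios scaling. SLC25A51, the NAD carrier, was not called as deposited, with -0.20 ± 0.07 in expansion and -0.01 ± 0.07 at day 4, and was called lower in both with median-of-ratios scaling, at -0.30 (limma adjusted p = 0.00037) and -0.33 (limma adjusted p = 0.00011).

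The calcium-regulated ATP-Mg/phosphate carriers, which adjust the adenine nucleotide content of the matrix, did not all move the same way. SLC25A23 and SLC25A24 were higher in both clones in both conditions. SLC25A25 was lower in both by small differences. SLC25A24 (ENSG00000085491.17, chr1:108134036-108200849) was at 17.2, 25.1 and 22.8 TPM in FL, 35.7, 37.2 and 37.6 in 1D5 and 52.9, 51.4 and 54.4 in 1KI9 in expansion. Its day 4 values were 5.54, 6.12 and 6.66 units in FL, 23.3, 20.7 and 22.8 in 1D5 and 24.03, 23.5 and 25.6 in 1KI9. All 3 groups were apart in expansion, where 1KI9 was above 1D5, and at day 4 both clones were above FL. The log2 differences of SLC25A24 were 1.01 ± 0.09 (SE, limma adjusted p = 1.9e-08) in expansion and 1.77 ± 0.09 (SE, limma adjusted p = 2.57e-12) at day 4.

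SLC25A23 (ENSG00000125648.15, chr19:6436079-6465203) was at 8.85, 12.2 and 8.57 TPM in FL, 25.2, 25.6 and 21.5 in 1D5 and 25.9, 28.4 and 29.5 in 1KI9 in expansion and at 5.68, 5.16 and 5.16 units in FL, 16.99, 18.8 and 18.8 in 1D5 and 16.99, 17.7 and 17.1 in 1KI9 at day 4. Every GATA1s library was above every FL library in each condition, and the clones overlapped one another at day 4. Its differences were 1.32 ± 0.09 (SE, limma adjusted p = 6.92e-10) and 1.56 ± 0.09 (SE, limma adjusted p = 2.01e-11), the former the largest in expansion among the carriers. SLC25A25 was at 15.7, 18.9 and 14.3 TPM in FL, 12.5, 13.3 and 12.8 in 1D5 and 13.4, 13.02 and 13.9 in 1KI9 in expansion and at 14.1, 15.1 and 13.5 units in FL, 12, 12.5 and 12.4 in 1D5 and 12.9, 12.6 and 11.98 in 1KI9 at day 4. FL stood above the clones in both, by small steps. The differences of SLC25A25 were -0.28 ± 0.07 (SE, limma adjusted p = 0.00217) and -0.19 ± 0.07 (SE, limma adjusted p = 0.0184). Its day 4 call was lost with no filter on low values, with the replicate block and on leaving out any of 14 of the 18 libraries (without FL replicate 2, -0.15 at an adjusted p of 0.106 in limma). Its expansion call was lost with only the libraries compared fitted and without FL replicate 2. Of 10 paralogue pairs with both members measured, SLC25A24 with SLC25A25 was the one called in opposite directions, which rests on these calls of SLC25A25.

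**Figure D2:**
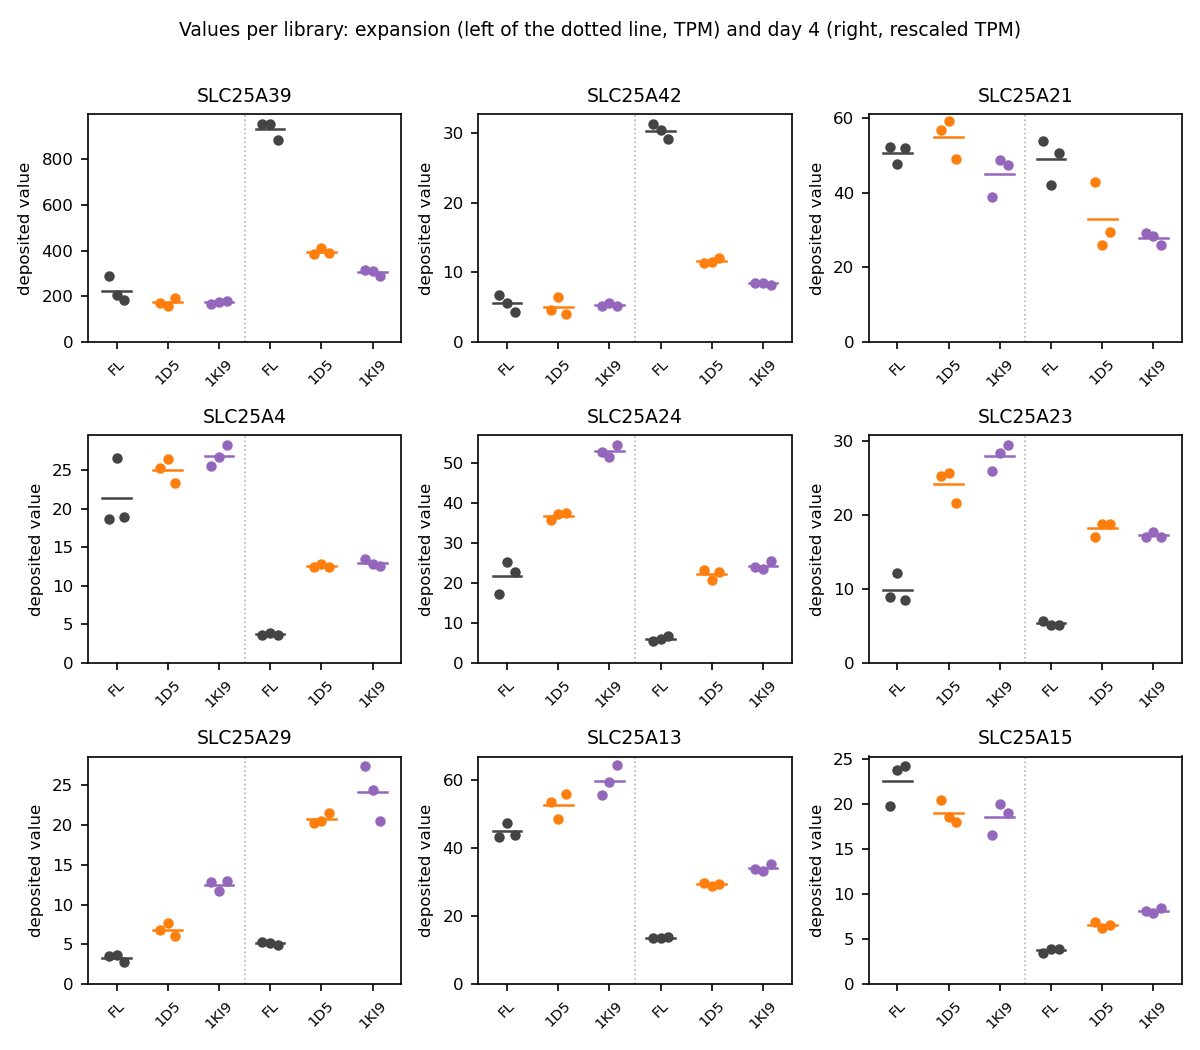
Deposited value of 9 SLC25 carriers in each library (points, 3 per group, with a bar at the group mean), in expansion in TPM to the left of the dotted line and at day 4 in rescaled TPM to the right. At day 4 SLC25A39 and SLC25A42 are highest in FL, whereas SLC25A4, SLC25A24, SLC25A23, SLC25A29, SLC25A13 and SLC25A15 are lowest in FL.

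The ADP/ATP exchangers and the phosphate carrier supply ATP synthase and export its product. Of these, SLC25A3, SLC25A5 and SLC25A6 were among the most abundant carriers, and SLC25A4 was not. SLC25A4, the exchanger typical of heart and muscle (ENSG00000151729.11, chr4:185143241-185150382), was higher in both clones at day 4, at 3.68, 3.86 and 3.67 units in FL, 12.5, 12.8 and 12.4 in 1D5 and 13.5, 12.8 and 12.6 in 1KI9. All 6 GATA1s libraries were above FL by more than the spread within any group, and the clones overlapped. The log2 difference of SLC25A4 was 1.54 ± 0.08 (SE, limma adjusted p = 1.4e-11). In expansion it was at 18.8, 26.6 and 18.9 TPM in FL, 25.3, 26.5 and 23.4 in 1D5 and 25.5, 26.7 and 28.3 in 1KI9, where FL replicate 2 lay within the range of the clones, and SLC25A4 passed in 1KI9 (0.33 ± 0.10 (SE, limma adjusted p = 0.00755)) but not in 1D5 (0.23 ± 0.10 (SE, limma adjusted p = 0.0763)).

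SLC25A5, the exchanger of growing cells, was lower in both clones in expansion, at 537, 535 and 563 TPM in FL, 492, 495 and 469.9 in 1D5 and 449, 489 and 513 in 1KI9, a difference of -0.17 ± 0.05 (SE, limma adjusted p = 0.00485). This call was lost with only the libraries compared fitted and without FL replicate 3, 1D5 replicate 3 or 1KI9 replicate 1. At day 4 it was at 253, 242 and 248 units in FL, 234, 252 and 229 in 1D5 and 234, 237 and 229 in 1KI9 and was not called (-0.07 ± 0.05, adjusted p = 0.166); with median-of-ratios scaling the day 4 difference was -0.43 (adjusted p = 7.31e-07). SLC25A6, the third exchanger, was at 199 ± 22.3, 180.4 ± 8.67 and 167 ± 8.67 TPM in expansion and was not called in either condition as deposited. With median-of-ratios scaling it was called lower at day 4, at -0.42 (limma adjusted p = 8.18e-05). It lies in the pseudoautosomal region of the X and Y chromosomes, and the table lists it at each with identical values; 1 entry was counted, so its level is too low if reads were divided between the copies. SLC25A5 and other abundant carriers have processed pseudogenes, and reads shared with these make their levels uncertain. SLC25A3, the phosphate carrier (ENSG00000075415.12, chr12:98593591-98606379), had the highest mean of the 37 carriers, at 489, 554 and 519 TPM in FL, 558, 569 and 503 in 1D5 and 522, 568 and 559 in 1KI9 in expansion. At day 4 it was at 288, 289.8 and 286 units in FL, 353, 369.9 and 356 in 1D5 and 373, 374 and 348 in 1KI9, a difference of 0.33 ± 0.05 (SE, limma adjusted p = 1.01e-05) that became -0.03 with median-of-ratios scaling. At day 4 the differences of SLC25A4, SLC25A5 and SLC25A6 from FL, as deposited, were thus 1.54, -0.07 and -0.06, and by level SLC25A4 was the least abundant of the exchangers, with a mean of 17.1 over all libraries against 372 for SLC25A5.

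Of the aspartate, glutamate and other amino acid carriers, 5 of 6 were higher in both clones at day 4, where 51.2% of all genes were called higher. SLC25A29 and SLC25A13 were higher in expansion too. SLC25A29 (ENSG00000197119.13, chr14:100291111-100306547), a carrier of basic amino acids, was at 3.54, 3.67 and 2.71 TPM in FL, 6.76, 7.66 and 5.99 in 1D5 and 12.8, 11.7 and 12.96 in 1KI9 in expansion. The 3 groups did not overlap, in the order FL, 1D5 and 1KI9, and 1KI9 exceeded 1D5 by 0.79 ± 0.10 (SE, limma adjusted p = 9.38e-06), the largest difference between the clones. The day 4 values of SLC25A29 were 5.26, 5.14 and 4.95 units in FL, 20.3, 20.6 and 21.6 in 1D5 and 27.4, 24.5 and 20.5 in 1KI9, with the clones overlapping. The log2 differences of SLC25A29 from FL were 1.26 ± 0.09 (SE, limma adjusted p = 2.1e-09) in expansion and 1.93 ± 0.09 (SE, limma adjusted p = 1.77e-12) at day 4, the latter the largest of the 37.

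SLC25A13, or citrin, which exchanges aspartate for glutamate in the malate-aspartate shuttle (ENSG00000004864.13, chr7:96120220-96322147), was at 13.6, 13.5 and 13.7 units in FL, 29.6, 28.9 and 29.3 in 1D5 and 33.8, 33.4 and 35.4 in 1KI9 at day 4. The groups were apart and 1KI9 exceeded 1D5 by 0.22 ± 0.06 (SE, limma adjusted p = 0.0215), a call lost with median-of-ratios scaling and without 1D5 replicate 2 or 3 or 1KI9 replicate 1 or 3. The differences of SLC25A13 from FL were 0.32 ± 0.05 (SE, limma adjusted p = 8.77e-05) in expansion and 1.16 ± 0.05 (SE, limma adjusted p = 1.61e-12) at day 4. The expansion call was lost with only the libraries compared fitted or without 1D5 replicate 3. SLC25A12, its paralogue, was higher than in FL by 0.83 ± 0.07 at day 4 and was not called in expansion, with 0.17 ± 0.07. SLC25A22, the glutamate carrier, differed from FL by -0.20 ± 0.10 in expansion, where it was not called. At day 4 it was called higher as deposited, by 0.40 ± 0.10.

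SLC25A15, which carries ornithine for the urea cycle and polyamine synthesis (ENSG00000102743.15, chr13:40789412-40810111), was higher in both clones at day 4. In expansion it was at 19.8, 23.8 and 24.3 TPM in FL, 20.5, 18.6 and 18.1 in 1D5 and 16.6, 20.04 and 19 in 1KI9, where FL replicate 1 lay among the clones. At day 4 it was at 3.45, 3.92 and 3.86 units in FL, 6.85, 6.21 and 6.56 in 1D5 and 8.1, 7.89 and 8.48 in 1KI9, with FL lowest and 1KI9 highest. The differences of SLC25A15 were -0.25 ± 0.07 (SE, limma adjusted p = 0.00901) and 0.81 ± 0.07 (SE, limma adjusted p = 1.93e-08); the expansion call was marginal in 1D5 (adjusted p = 0.0497) and was lost in 5 of 7 other settings and on leaving out any of 14 of the 18 libraries (without FL replicate 3, -0.20 at an adjusted p of 0.0655), so SLC25A15 was not reliably lower there. SLC25A44, the branched-chain amino acid carrier, was not called, with 0.18 ± 0.07 at day 4.

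Of the carboxylate carriers, none was called in expansion (limma, and 0 at an unadjusted p under 0.05 in both clones), and at day 4 SLC25A11, SLC25A10 and SLC25A1 were higher and SLC25A21 lower. SLC25A11, the oxoglutarate carrier of the malate-aspartate shuttle, was at 21.1 ± 0.566, 34.96 ± 3.07 and 34.2 ± 0.967 units, a difference of 0.69 ± 0.06. SLC25A10, the dicarboxylate carrier, was at 7.92, 7.14 and 7.87 units in FL, 12.6, 13.8 and 11.8 in 1D5 and 13.1, 12.8 and 11.8 in 1KI9 at day 4 (0.66 ± 0.09). In expansion SLC25A10 was at 26.7, 33.6 and 29.3 TPM in FL, 32.8, 34.8 and 26.6 in 1D5 and 21.7, 27.6 and 26.2 in 1KI9, with 1KI9 below 1D5 by -0.31 ± 0.11 (SE, limma adjusted p = 0.0276). That call was lost with only the libraries compared fitted and without 1D5 replicate 1, 1D5 replicate 2 or 1KI9 replicate 1. SLC25A1, which exports citrate for lipid synthesis, differed by 0.52 ± 0.15 at day 4.

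SLC25A21, the oxoadipate carrier of lysine and tryptophan breakdown (ENSG00000183032.11, chr14:36678431-37172866), was at 54.01, 42.2 and 50.6 units in FL, 42.9, 26.1 and 29.6 in 1D5 and 29.1, 28.5 and 25.99 in 1KI9 at day 4. 1D5 replicate 1 lay at the level of FL, the other GATA1s libraries were below it, and SLC25A21 differed by -0.68 ± 0.12 (SE, limma adjusted p = 4.47e-05). In expansion SLC25A21 was at 52.3, 47.7 and 52.1 TPM in FL, 56.8, 59.3 and 49.1 in 1D5 and 38.97, 48.8 and 47.5 in 1KI9, with overlap, and differed by -0.03 ± 0.12.

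The pyrimidine nucleotide carriers SLC25A33 and SLC25A36 were called higher in both clones at day 4 as deposited, by 0.36 ± 0.07 and 0.69 ± 0.11, and were not called in expansion. With median-of-ratios scaling both day 4 calls were lost, and SLC25A33 was called lower in expansion. Of the uncoupler-like carriers, SLC25A30 was higher in both conditions, and SLC25A14 was called so as deposited. SLC25A30, at 1.64, 1.78 and 1.5 TPM in FL, 3.17, 4.28 and 3.77 in 1D5 and 4.38, 4.38 and 4.75 in 1KI9 in expansion and 0.79, 0.62 and 0.70 units in FL, 2.24, 1.76 and 2.21 in 1D5 and 3.15, 2.63 and 2.91 in 1KI9 at day 4, was near the minimum value of 1 in FL. The groups did not overlap, and its differences were 0.95 ± 0.08 (SE, limma adjusted p = 2.45e-08) and 1.02 ± 0.08 (SE, limma adjusted p = 3.01e-09); at day 4 1KI9 exceeded 1D5 by 0.35 ± 0.10 (SE, limma adjusted p = 0.0166), a call lost without 1D5 replicate 2, 1KI9 replicate 1 or 1KI9 replicate 3. SLC25A14 differed by 0.33 ± 0.08 and 0.35 ± 0.08. Its calls were lost in both conditions with median-of-ratios scaling (0.04 at day 4, limma adjusted p = 0.637). The expansion call was also lost with only the libraries compared fitted and without FL replicate 1 or 2 or 1D5 replicate 1, and the day 4 call without 1D5 replicate 1.

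Among carriers whose substrate is not assigned here, SLC25A35 was higher in both conditions, at 1.63, 1.43 and 1.86 TPM in FL, 2.67, 3.02 and 2.44 in 1D5 and 3.19, 2.63 and 2.82 in 1KI9 in expansion and 2.97, 3.24 and 2.75 units in FL, 7.38, 6.35 and 7.97 in 1D5 and 7.78, 7.93 and 7.61 in 1KI9 at day 4. Neither condition showed overlap with FL, and the differences of SLC25A35 were 0.52 ± 0.08 (SE, limma adjusted p = 3e-05) and 1.09 ± 0.08 (SE, limma adjusted p = 9.26e-10). SLC25A45 was at 2.34, 2.11 and 1.97 TPM in FL, 2.13, 3.01 and 2.84 in 1D5 and 4.29, 3.25 and 4.06 in 1KI9 in expansion, where 1KI9 exceeded 1D5 by 0.41 ± 0.12 (SE, limma adjusted p = 0.00854) and only 1KI9 passed against FL. The call between the clones was lost with median-of-ratios scaling, with only the libraries compared fitted and without 1D5 replicate 1. At day 4 SLC25A45 and SLC25A43 were called higher, by 0.40 ± 0.10 and 0.55 ± 0.10. SLC25A46, a carrier relative of the outer membrane, and SLC25A53 were not called, with -0.03 ± 0.07 and 0.35 ± 0.10 at day 4. SLC25A48, which entered through its GATA1s expansion libraries, was at 0.50, 0.51 and 0.44 TPM in FL, 1.07, 1.02 and 0.59 in 1D5 and 1.07, 1.4 and 1.31 in 1KI9 there and 0.12, 0.25 and 0.11 units in FL, 0.49, 0.25 and 0.48 in 1D5 and 0.43, 0.48 and 0.44 in 1KI9 at day 4.

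Across the conditions, 7 carriers other than SLC25A48 were called higher in both clones both times (SLC25A13, SLC25A14, SLC25A23, SLC25A24, SLC25A29, SLC25A30 and SLC25A35) and 2 were called lower both times (SLC25A25 and SLC25A39). SLC25A15 and SLC25A32 were among those called lower in expansion and higher at day 4, though each lower call was lost under several settings. The difference of the day 4 and expansion contrasts, tested as a genotype by condition interaction in the same limma fit, was positive for 18 carriers and negative for 3. Among all genes 45.4% had a positive and 19.7% a negative interaction, or 3412 and 3374 genes with median-of-ratios scaling against 4992 and 2170 as deposited; the carriers then numbered 16 and 4. The largest interactions were those of SLC25A42 at -1.43 ± 0.16 (SE, limma adjusted p = 4.65e-07), SLC25A4 at 1.26 ± 0.12 (SE, limma adjusted p = 9.28e-08), SLC25A39 at -1.08 ± 0.14 (SE, limma adjusted p = 2.88e-06) and SLC25A15 at 1.06 ± 0.11 (SE, limma adjusted p = 1.69e-07). SLC25A21 was the other carrier with a negative interaction.

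Between the GATA1s clones, 8 carriers differed in expansion (6 higher, SLC25A48 among them, and 2 lower in 1KI9) and 6 at day 4 (4 higher and 2 lower). Of all genes, 33.4% were higher and 7.15% lower in 1KI9 than in 1D5 in expansion, and 12.5% and 6.7% at day 4. With median-of-ratios scaling the expansion count became 2 higher and 14 lower, and that of all genes 2119 and 2843 in place of 3688 and 789, so its direction depends on the scaling. The calls of SLC25A39 (-0.37 ± 0.11 (SE, limma adjusted p = 0.0295)) and SLC25A42 (-0.42 ± 0.13 (SE, limma adjusted p = 0.0279)) at day 4 were each lost on leaving out any 1 of the 6 libraries compared. In each of those fits, 2 or 3 carriers were lower at an unadjusted p under 0.05 in limma.

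Day 4 and expansion values were scaled separately and were set side by side without a test. In FL, SLC25A42 and SLC25A39 were 4.75 and 4.12 times as high at day 4 as in expansion, as ratios of the mean of (value + 1). These ratios were 2.10 and 2.25 in 1D5 and 1.49 and 1.75 in 1KI9. They were the 2 carriers that were at least 2-fold higher at day 4 in FL without overlap, while 14 were at least 2-fold lower, and over all genes 9.87% and 25.4% met these limits. The lowest ratios in FL were those of SLC25A15 (0.201), SLC25A4 (0.211) and SLC25A43 (0.264). In 1D5, 4 carriers were at least 2-fold higher (SLC25A29, SLC25A35, SLC25A39 and SLC25A42) and 8 lower, where all genes gave 10% and 14.3%, and in 1KI9 the counts were 1 (SLC25A35) and 7, where all genes gave 4.35% and 11.9%. The median log2 ratio of the carriers was -0.78 in FL, -0.59 in 1D5 and -0.52 in 1KI9, below the -0.38, -0.15 and -0.25 of all genes. It stayed below that of all genes in each line with both other scalings.

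**Figure D3:**
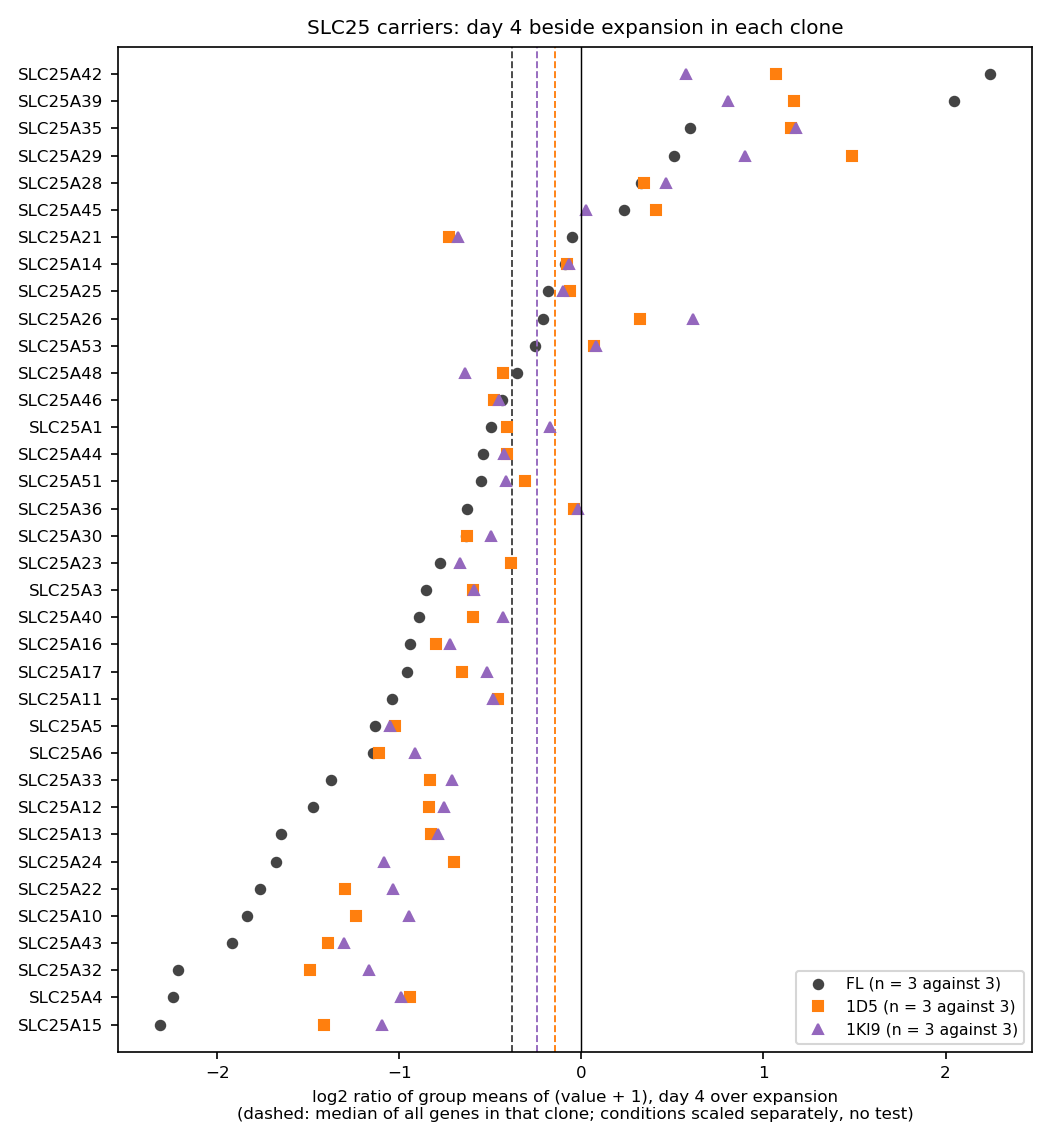
Log2 ratio of the group means of (value + 1), day 4 over expansion, for 36 SLC25 carriers in FL (circles), 1D5 (squares) and 1KI9 (triangles), sorted by FL; dashed lines mark the median of all genes in each line, and no test was made. SLC25A42 and SLC25A39 are the highest in FL at 2.25 and 2.04, and SLC25A15 and SLC25A4 the lowest at -2.32 and -2.24.

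The summed level of the 37 carriers was 2087 ± 49.1 TPM in FL in expansion (SD, n = 3), 2028 ± 75.3 in 1D5 and 2035 ± 98.2 in 1KI9, differences within the spread of the libraries (exact two-sided permutation test, p = 0.4 and 0.6). At day 4 the sum was 1898 ± 50.4 units in FL, 1522 ± 29.6 in 1D5 and 1467 ± 32.6 in 1KI9. The 3 FL libraries exceeded every GATA1s library, and p was 0.1 in each exact comparison, the smallest that 3 against 3 libraries allow. SLC25A39 alone made up 48.0% to 49.9% of the day 4 sum in FL, 25.5% to 26.4% in 1D5 and 20.3% to 21.1% in 1KI9. Without SLC25A39, left out after its values were seen, the sum as deposited was 965.7 ± 12.03 in FL, 1128 ± 17.3 in 1D5 and 1162 ± 19.5 in 1KI9 (exact p = 0.1 each), with FL now lowest. With median-of-ratios scaling FL stayed highest without SLC25A39, at log2 ratios of -0.11 for 1D5 and -0.12 for 1KI9. In expansion SLC25A39 made up 8.94% to 13.8% of the sum in FL and 7.65% to 9.93% in the clones. SLC25A3, SLC25A5 and SLC25A39, the carriers with the highest means, together took most of the day 4 sum, 77.1% to 77.6% in FL and 60.6% to 66.4% in the clones.

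**Figure D4:**
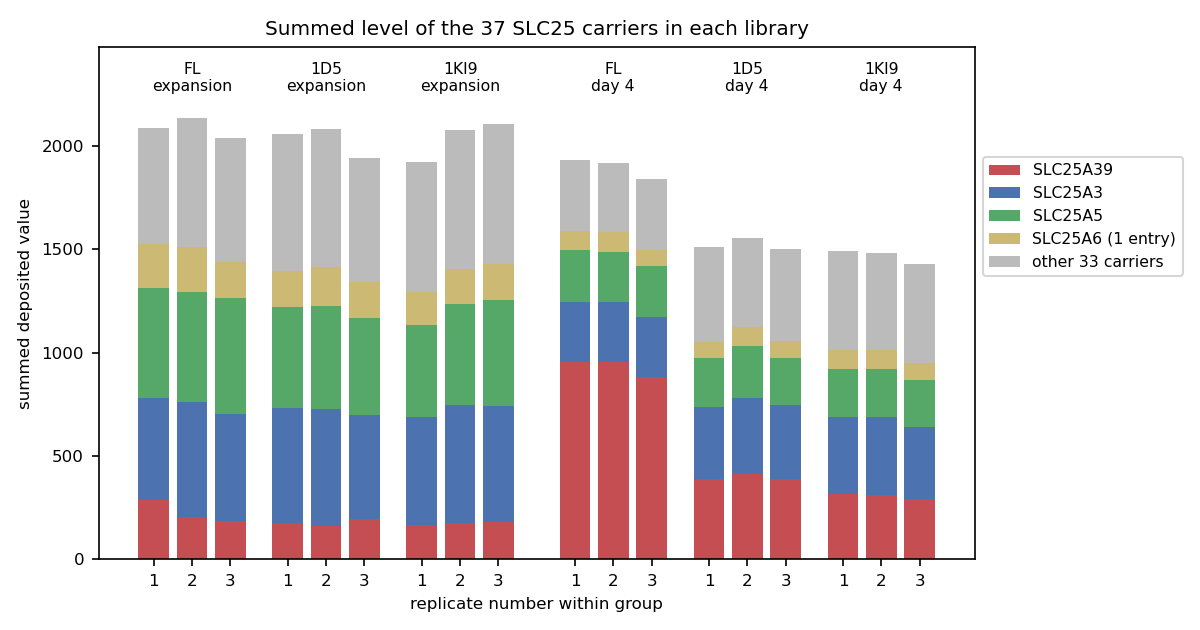
Summed deposited value of the 37 SLC25 carriers in each of the 18 libraries (stacked bars, TPM in expansion and rescaled TPM at day 4), split into SLC25A39, SLC25A3, SLC25A5, SLC25A6 and the others. The SLC25A39 segment takes 48.0% to 49.9% of the bar in the FL libraries at day 4 and 20.3% to 26.4% in the GATA1s libraries.

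Genes that work with the carriers were followed as lists. Carrier precursors reach the inner membrane through the receptor TOMM70, the small TIM chaperones and the TIM22 complex. Of 10 such genes, 0 were higher and 1 lower in both clones in expansion (limma, with 0 and 1 at an unadjusted p under 0.05), and 5 were higher and 0 lower at day 4 (5 and 0 unadjusted). Over all genes 17.4% were called higher and 8.98% lower in expansion, and 51.2% and 14.3% at day 4. The higher count of the list at day 4 was thus near the share of all genes. TIMM10, a chaperone subunit, was the lower one at -0.28 ± 0.06. The largest positive differences from FL at day 4 were those of TIMM8B (0.54 ± 0.06) and TIMM10B (0.45 ± 0.07). The list's median was -0.03 in expansion and 0.36 at day 4, where those of all genes were 0.06 and 0.29.

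Of 9 enzymes that use the metabolites moved by the malate-aspartate, glycerol phosphate and citrate shuttles, 1 was higher and 1 lower in expansion, and 8 were higher and 0 lower at day 4 (limma, with 9 and 0 at an unadjusted p under 0.05). The shares of all genes were 17.4% higher and 8.98% lower in expansion and 51.2% and 14.3% at day 4. In expansion MDH1, the cytosolic malate dehydrogenase, was higher (0.34 ± 0.05) and GOT1, the cytosolic aspartate aminotransferase, lower (-0.40 ± 0.05). At day 4 the largest increases were those of ME1, the cytosolic malic enzyme, from 3.32 ± 0.13 units in FL to 11.5 ± 0.195 in 1D5 and 10.2 ± 0.335 in 1KI9 (1.45 ± 0.06), and MDH1 (0.92 ± 0.05). As deposited, these enzymes had a median difference of 0.48 at day 4, against 0.29 over the whole set of genes tested. The latter value depends on the scaling, and the median of the enzymes under the other scalings is not given here.

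Of 23 other mitochondrial transport genes without an SLC25A symbol, among them UCP and MTCH genes that belong to the same protein family, 6 were higher and 4 lower in expansion, and 9 were higher and 3 lower at day 4. Over all genes 17.4% and 8.98% were called in expansion and 51.2% and 14.3% at day 4. In expansion SFXN3, a sideroflexin, had the largest increase (1.56 ± 0.10). ABCB10, a mitochondrial ABC transporter needed for heme synthesis in erythroid cells, had the largest decrease in both conditions, from 65.6 ± 3.25 units in FL at day 4 to 16.1 ± 0.838 in 1D5 and 15.3 ± 0.13 in 1KI9. Its log2 differences were -0.52 ± 0.07 in expansion and -1.996 ± 0.07 at day 4, and the next decreases were SFXN4 in expansion (-0.39 ± 0.06) and SFXN2 at day 4 (-0.33 ± 0.07). MCU, the pore of the calcium uniporter (1.00 ± 0.08), and the outer membrane channel VDAC1 (0.88 ± 0.07) had the largest positive differences from FL at day 4. VDAC1 was lower in expansion (-0.23 ± 0.07).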

How the data were processed

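Poly(A) RNA of 18 HUDEP1 libraries (6 groups of 3) was read from 1 table of 13358 entries. In the deposited table expansion is in TPM. Day 4 is a TPM-like signal, rescaled by the authors in a way the sources do not state. A test for log-scale values had been planned for TPM and was kept for both. STAR 2.7, RSEM 1.31 and Trim Galore 0.60 are named, with hg38 (GRCh38.p12), per the submitters' processing notes. RSEM shares out ambiguous reads, which makes near-identical genes uncertain. Neither unit keeps read depth, so no counting intervals were computed.

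From these values, log2(value + 1) was fitted with limma 3.58.1 in R 4.3.3 (6 group means, variance trend) for the 11098 genes that reached 1 in 3 or more libraries, after 13 Y-chromosome entries identical to their X copies were dropped. Genes listed at 0 throughout a condition were left out of its tests. P-values were adjusted by Benjamini-Hochberg over all genes tested at 0.05. On simulated data of 11098 genes for the expansion comparison, 74% of genes changed by 0.5 (log2) and 100% of those changed by 1 were called. The changed genes had a mean log2(value + 1) above 3 in FL in expansion and the same change in both clones. These shares do not cover lower genes. Whether replicate numbers pair the libraries is not in the labels, and they were not read as pairs. Coordinates are those of GENCODE 29, and promoters those of RefSeq (GRCh38.p14, first entry of each symbol). The single results of 1 carrier and of 1 gene of the transport list, both kept in the counts, are not reported here. The members and lists were chosen with earlier results of these data known. Values per library were given for the 6 higher and 6 lower called members with the largest differences in each condition, the 4 largest differences between clones and interactions, the 3 highest means and paralogue pairs called in opposite directions; from each list, the 2 largest called differences in each direction and condition were named. Alternatives were the pseudocount, the filter, 2 scalings, the libraries fitted, the variance trend, a replicate block and each library left out.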

Additional observations from a re-analysis of the deposited data

Results flagged for a closer look

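The interaction term of the limma fit was called positive for 18 carriers and negative for 3, and the 4 largest are given here. It measures how far the difference between the GATA1s clones and FL at day 4 departed from that in expansion. Over all genes 45.4% were called positive and 19.7% negative. SLC25A4 had the largest positive value, with a log2 interaction of 1.26 (adjusted p = 9.28e-08), and SLC25A15 followed with 1.06 (adjusted p = 1.69e-07). SLC25A42 had the largest negative value, at -1.43 (adjusted p = 4.65e-07), and SLC25A39 followed with -1.08 (adjusted p = 2.88e-06). Each was the mean of both clones over 3 libraries per group.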

How the results depend on the processing

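With median-of-ratios scaling the day 4 counts in both clones were 14 higher and 9 lower, the expansion difference between clones 2 higher and 14 lower, the 1KI9 counts of day 4 against expansion 3 higher and 1 lower, and the log2 ratios of the summed level -0.25 (1KI9, expansion), -0.65 (1D5, day 4) and -0.76 (1KI9, day 4). SLC25A3 reversed at day 4, from 0.33 to -0.031. Rescaling without globin and mitochondrially encoded genes gave 3 lower in both clones in expansion, then 3 higher and 4 lower between the clones there, 5 lower in 1D5 and 3 higher and 1 lower in 1KI9 for day 4 against expansion. Fitting only the libraries compared gave 5 carriers higher and 0 lower in both clones for expansion (limma, 8 and 2 at an unadjusted p under 0.05) and 2 higher and 1 lower between clones there. The cause of these moves was not tested.

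Leaving out each library in turn gave ranges for both clones of 6 to 8 higher and 2 to 7 lower in expansion and 22 to 25 and 3 to 4 at day 4. Between the clones the ranges were 3 to 7 higher and 1 to 3 lower in expansion, with 3 higher without 1KI9 replicate 2 and 1 lower without 1D5 replicate 1 or 2 or 1KI9 replicate 1. At day 4 they were 1 to 6 higher and 0 to 2 lower (limma, with 5 to 8 and 2 to 3 at an unadjusted p under 0.05), with 1 higher without 1D5 replicate 2, 1KI9 replicate 1 or 1KI9 replicate 3. Interactions ranged over 18 to 20 and 3. With the replicate block there were 8 higher and 5 lower in expansion, 24 and 3 at day 4, and 19 and 3 interactions; same-numbered libraries did not all deviate together, so the numbers were not read as pairs. Of the calls in both clones, 5 of 8 higher and 0 of 6 lower in expansion and 14 of 24 higher and 3 of 4 lower at day 4 were kept in all 7 other settings and with each of the 18 libraries left out. Counting both SLC25A6 entries, an alternative chosen after seeing the data, kept the direction of the summed level at day 4.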

Other observations

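AGK, a subunit of the TIM22 complex that inserts SLC25 carriers, was outside the rule for named genes and was picked after its values were seen. Expansion means (± SD, n = 3) were 28.7 ± 2.51 TPM for FL, 12.9 ± 1.46 for 1D5 and 28.9 ± 1.75 for 1KI9. Day 4 means were 10.2 ± 2.07, 8.91 ± 0.523 and 18.8 ± 1.33 units. Expansion levels in 1D5 were thus below those of the other lines, and 1KI9 was highest at day 4. The transport gene UCP2, an uncoupling protein of the same family without an SLC25A symbol, was also picked after its values were seen. At day 4 its level of 945.7 ± 34.2 units in FL was near that of SLC25A39, and it was 1040 ± 36.6 in 1D5 and 781.5 ± 32.1 in 1KI9, on opposite sides of FL.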
